A study of Mus musculus with 16 samples.

Results

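The surface chains through which B cells sense cytokines were followed here in 10 genes, Il2rg, Il5ra, Il6ra, Il6st, Il9r, Il10ra, Il27ra, Ifngr1, Ifnar1 and Tgfbr2, chosen by symbol out of the 27928 genes in the table. All 10 passed the filter on low values. Splenic B cells were enriched by negative selection from C57BL/6 mice of 8 to 12 weeks of age and sorted into follicular (FO, CD21lo CD23hi) and marginal zone (MZ, CD21hi CD23lo) B cells. The cKO mice carried Gtf2i fl/fl and a Cre expressed in the B lineage, so that floxed Gtf2i, which encodes the transcription factor TFII-I, was deleted in B cells, and the WT mice carried neither the floxed alleles nor the Cre. RNA was sequenced from the sorted cells, with 2 libraries in each of WT FO, WT MZ, cKO FO and cKO MZ. The sources do not state that the libraries of a group came from separate mice. A p-value thus measures only the spread between these libraries, which may be technical. The 2 cKO FO libraries, however, differed in Xist RNA (14748 and 67.4 normalized counts), so these were not repeats of the same RNA.

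Cytokine receptors work as pairs or trios of chains. A ligand-binding chain such as IL-6Rα or IL-9R is joined by a signaling chain shared among several cytokines: the common gamma chain (Il2rg) for IL-2, IL-4, IL-7, IL-9, IL-15 and IL-21, the common beta chain (Csf2rb) for IL-5, and gp130 (Il6st) for IL-6 and IL-27. JAK kinases bound to the chains phosphorylate STAT factors, whereas the TGF-β receptor is a serine/threonine kinase that acts on SMAD factors, and in B cells these inputs bear on survival, class switching and antibody secretion.

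The chains differed between the subsets in both directions. Il9r was higher in MZ B cells, 3.92-fold in WT and 4.55-fold in cKO mice, whereas Il6ra was higher in FO B cells, 2.42-fold in WT and 3.19-fold in cKO mice. Il27ra, Ifnar1 and Tgfbr2 were also higher in FO B cells, by 1.61-fold to 1.86-fold. Il2rg, Il5ra, Il6st and Ifngr1 were called in neither genotype. Between cKO and WT no chain passed the test in FO, in MZ or across both subsets, where 0.0677%, 0.0339% and 0.108% of all genes did, so that 0 chains is near the background.

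In counts, 4 of the 10 chains passed as higher in the FO B cells of WT mice (Il6ra, Il27ra, Ifnar1 and Tgfbr2) beside 4.62% of all genes, and 1 was called lower (Il9r) beside 7.41% of all genes. A call required a Benjamini-Hochberg adjusted p of 0.05 or less across the 14761 genes tested by limma together with a fold of 1.5 or more. In cKO mice 5 chains were called higher, the same 4 and Il10ra, beside 5.54% of all genes, and Il9r was again called lower, beside 8.18%. The median FO minus MZ difference of the 10 chains was 0.35 on the log2 scale in WT and 0.54 in cKO, where the medians over all genes tested were 0.0048 and 0.0047. The chains were chosen with earlier results of these data known, and all genes tested include far lower ones. These counts and medians beside those of all genes are therefore a description and not a test. In each of the 4 FO libraries 6 chains (Il2rg, Il6ra, Il27ra, Ifngr1, Ifnar1 and Tgfbr2) lay above each of the 4 MZ libraries, as 17.9% of all genes did, and Il9r lay below, as 18.6% did. With 2 libraries against 2, an exact two-sided permutation test of a single gene cannot go below 0.333, so the p-values rest on the spread that limma shares across genes.

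**Figure D1:**
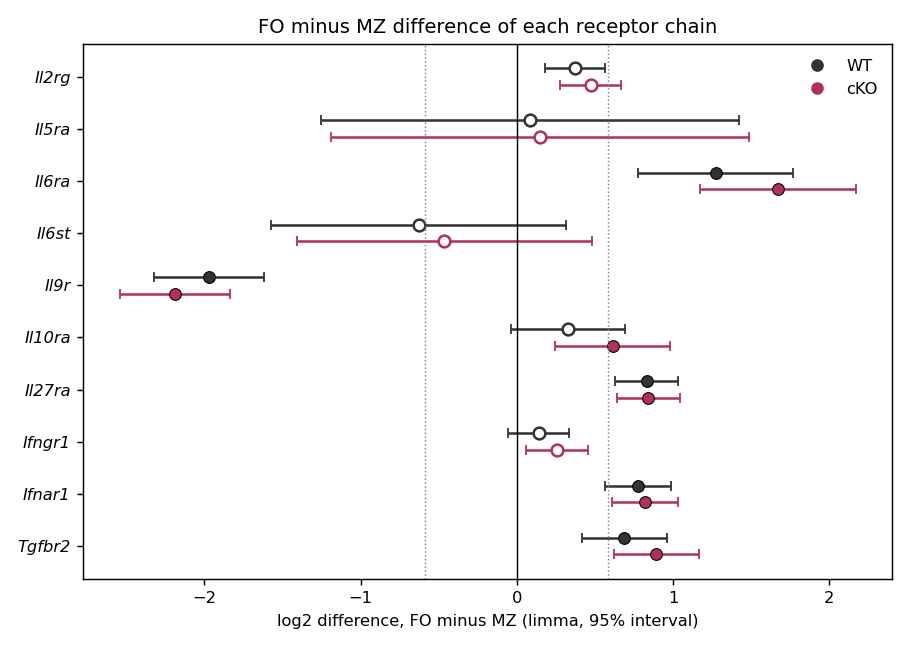
FO minus MZ difference of each receptor chain in log2 of the normalized count plus 1 (x axis), with one row per gene, WT in black and cKO in magenta. Points are limma estimates, bars are 95% confidence intervals, filled points passed both cutoffs, and the dotted lines mark a fold of 1.5. Il9r is the only chain called on the MZ side, at -1.97 and -2.19, and Il6ra lies farthest to the FO side at 1.27 and 1.67. Il6st also lies on the MZ side, at -0.63 and -0.46, and the intervals of Il5ra and Il6st span 0 in both genotypes.

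The libraries held from 21546552 to 25083552 reads on genes, each value being a read number divided by the size factor of its library. Gtf2i itself was between 1523 and 1889 normalized counts in cKO and between 1992 and 2864 in WT libraries. Counts over the whole gene include exons that remain after Cre recombination, and the part of these exons in the cKO level was not tested. Cr2 (CD21) was at 86953 or more in MZ and 26803 or less in FO libraries, and Cd3e of T cells was at 5.71 or less. Granulocyte markers summed to 2045 and erythroid and platelet markers to 13363 normalized counts in cKO MZ replicate 1, against at most 140.2 and 1088 in the other 7 libraries. Ddx3y, a Y-linked gene, was at 2682 or more in the 4 cKO and 6.34 or less in the 4 WT libraries. Xist was at 14748 in cKO FO replicate 1, 89.7 or less in the other 3 cKO and 25929.5 or more in the WT libraries. Genotype, sex-linked RNA and the presence of the Cre thus cannot be told apart. Within cKO, FO replicate 1 alone held both Xist and Ddx3y RNA at high levels. The part of this in the cKO FO minus MZ differences, including that of the X-linked Il2rg, was not tested. In sorted bulk samples, fewer cells of a type and less RNA per cell cannot be told apart either.

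**Figure D2:**
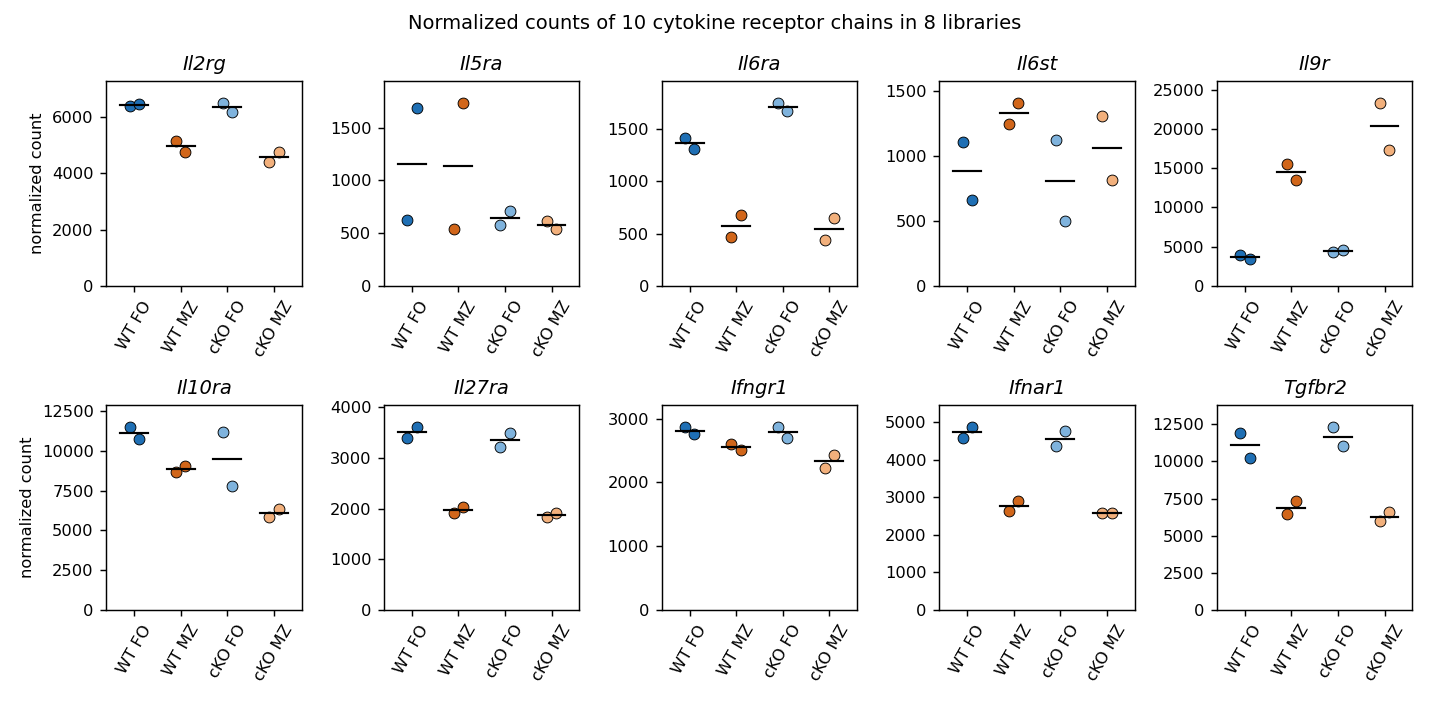
Normalized counts (y axis, linear, starting at 0, with its own range in each panel) of the 10 receptor chains in the 8 libraries. Circles are single libraries and black bars are the means of the 2 libraries of WT FO, WT MZ, cKO FO and cKO MZ. Il9r rises from 3423 to 4549 in FO to 13458 or more in MZ libraries, whereas Il5ra splits by replicate in WT, at 626 and 542 in replicate 1 and at 1686 and 1732 in replicate 2.

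Levels were compared between genes per kilobase of exon. The length was that of all annotated exons of a gene merged, not that of the transcripts present, and the order of genes depends on it. In WT FO B cells Il10ra led with a mean of 3184 normalized counts per kilobase, followed by Il2rg at 2688, Tgfbr2 at 1354, Il27ra at 1003 and Ifngr1 at 988. Ifnar1 at 796, Il9r at 746, Il5ra at 323, Il6ra at 158 and Il6st at 79.7 closed the order. The adjacent pairs Il27ra with Ifngr1 and Ifnar1 with Il9r did not differ beyond the spread of their libraries. In WT MZ B cells Il9r moved from the seventh place to the first, at 2925 per kilobase, ahead of Il10ra at 2533 and Il2rg at 2077, and Il6ra fell to the last, at 66.3. By their means the cKO orders had the same ends. Il10ra (2716) and Il2rg (2655), which did not differ beyond their spread, led in FO and Il9r (4108) led in MZ B cells. At the low end of cKO MZ, Il6st (95.6) and Il6ra (63.2) did not differ beyond their spread either.

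The 5′ flanks of the chains called in both genotypes are shown, other than that of Il27ra, since they belong to the genes that set the subsets apart. These are the 250 bases before the start of Il9r (chr11:32200280-32200529, minus strand), which was higher in MZ, and of Il6ra (chr3:89913197-89913446, minus strand), Ifnar1 (chr16:91484965-91485214, plus strand) and Tgfbr2 (chr9:116175364-116175613, minus strand), which were higher in FO B cells, in GRCm38.p6 by RefSeq and written 5′ to 3′ along the gene. Capitals mark a match to a searched motif.
Il9r: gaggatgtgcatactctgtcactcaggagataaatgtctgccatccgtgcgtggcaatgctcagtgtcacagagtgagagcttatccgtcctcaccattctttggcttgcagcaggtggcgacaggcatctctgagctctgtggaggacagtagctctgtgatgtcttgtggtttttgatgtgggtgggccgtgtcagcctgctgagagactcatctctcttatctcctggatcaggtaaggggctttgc
Il6ra: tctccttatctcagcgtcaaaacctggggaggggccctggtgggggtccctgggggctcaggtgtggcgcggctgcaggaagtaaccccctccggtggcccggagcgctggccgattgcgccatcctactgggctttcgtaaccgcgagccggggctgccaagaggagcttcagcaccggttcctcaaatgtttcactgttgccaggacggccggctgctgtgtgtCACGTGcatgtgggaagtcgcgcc
Ifnar1: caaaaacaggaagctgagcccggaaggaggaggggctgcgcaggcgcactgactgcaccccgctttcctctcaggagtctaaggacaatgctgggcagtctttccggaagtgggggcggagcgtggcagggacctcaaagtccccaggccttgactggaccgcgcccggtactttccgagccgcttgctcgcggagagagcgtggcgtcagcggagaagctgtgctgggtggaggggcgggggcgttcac
Tgfbr2: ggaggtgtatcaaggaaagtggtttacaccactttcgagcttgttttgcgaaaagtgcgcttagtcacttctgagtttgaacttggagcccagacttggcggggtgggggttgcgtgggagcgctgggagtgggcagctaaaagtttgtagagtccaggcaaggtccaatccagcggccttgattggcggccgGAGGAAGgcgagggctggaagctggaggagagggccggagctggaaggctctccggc
Of the 10 chains 8 had an entry in the RefSeq promoter table, and 5 motifs were searched on both strands of these windows. The E-box CACGTG, a motif that USF factors and TFII-I are known to bind, occurred in the Il6ra flank alone among the 8, 24 to 19 bases before the start, and in 6.02% of 32817 windows. GAGGAAG, a PU.1 motif, occurred in the Tgfbr2 flank alone, 57 to 51 bases before the start, and in 10.6% of windows. TTCNNNGAA (STAT, 7.01% of windows), the interferon-stimulated response element (2.97%) and the TATA box (12.4%) had no match in the 8 flanks. The Il9r flank held 5 CpG and 52.8% G and C, near the medians over all windows of 6 CpG and 52.4%. The Il6ra flank held 18 CpG and 65.2%, the Ifnar1 flank 19 CpG and 65.6% and the Tgfbr2 flank 12 CpG and 58.4%. The flank of Il6st, on the MZ side but not called, held 26 CpG and 66%. That of Il2rg, on the FO side but not called, held 3 CpG and 49.2%. Those of Il5ra (4 CpG, 48%) and Ifngr1 (11 CpG, 59.2%) belong to chains that were not called either. CpG content thus did not follow the direction of the subset difference over the 8 flanks. A match describes letters and is no evidence of binding.

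Among the chains that signal through the common gamma chain, the shared chain and its IL-9 partner went opposite ways. Il9r (ENSMUSG00000020279.10, chromosome 11 from 32187541 to 32200279, minus strand, GRCm38), the chain that binds IL-9, had WT FO libraries at 3963 and 3423 normalized counts, WT MZ libraries at 15480.3 and 13458, cKO FO libraries at 4284 and 4549 and cKO MZ libraries at 23286 and 17360.4. The lowest MZ library was above the highest FO library by more than the spread within any group. Its FO minus MZ difference was -1.97 on the log2 scale in WT (standard error 0.152, limma adjusted p = 0.000251) and -2.19 in cKO mice (limma adjusted p = 0.00016). Without cKO MZ replicate 1, which holds the granulocyte and erythroid RNA, the cKO difference was -1.98 (limma adjusted p = 0.002).

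Il2rg (ENSMUSG00000031304.18, X chromosome from 101264378 to 101268255, minus strand), the common gamma chain, had WT FO libraries at 6374 and 6457, WT MZ libraries at 5151 and 4765, cKO FO libraries at 6497 and 6179 and cKO MZ libraries at 4393 and 4744. FO and MZ libraries did not overlap in either genotype, and the replicates lay within 1.08-fold of each other. The difference was 0.37 (standard error 0.0838, limma adjusted p = 0.0215) in WT and 0.47 (limma adjusted p = 0.00754) in cKO mice, which at 1.30-fold and 1.39-fold stayed under the fold cutoff. Without cKO MZ replicate 1 the cKO difference was 0.42 (limma adjusted p = 0.0688). Of its exons 728 bases are shared with Gm20489 on the same strand, which was at a mean of 0.129 normalized counts. Per kilobase, Il9r was at 0.256 to 0.355 of the Il2rg level in the 4 FO libraries and at 1.36 to 2.56 of it in the 4 MZ libraries. The ratio thus differed between subsets, and the order of the chains was turned at the exon lengths used.

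Other partners of Il2rg differed between subsets as well. Il4ra, the IL-4 receptor alpha chain that drives class switching to IgG1 and IgE, was at 9357 to 13627 normalized counts in the FO and 3220 to 4888 in the MZ libraries, a log2 difference of 1.45 in WT (limma adjusted p = 0.000163). Il21r, for the T follicular helper cytokine IL-21, was higher in FO by 1.02 (limma adjusted p = 0.000659), and Il15ra was lower in FO by a log2 difference of -1.02 (limma adjusted p = 0.00883). Il2ra (86.0 or less), Il2rb (298 or less) and Il7r (32.5 or less) were low in the 8 libraries and passed the test in neither genotype.

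Il5ra (ENSMUSG00000005364.11, chromosome 6 from 106710357 to 106749037, minus strand), the IL-5-binding chain known from B-1 cells and eosinophils, was at 626 and 1686 normalized counts in WT FO and at 542 and 1732 in WT MZ B cells. In cKO it was at 582 and 711 in FO and at 619 and 542 in MZ B cells. Replicate 2 was the high library in both WT subsets, by 2.69-fold in FO and 3.20-fold in MZ, whereas the 6 other libraries lay between 542 and 711. The FO minus MZ difference was 0.083 in WT (95% interval -1.25 to 1.42, limma adjusted p = 0.947) and 0.15 in cKO mice (limma adjusted p = 0.884), and the WT value was 0.80 without WT FO replicate 1, -0.63 without WT FO replicate 2, -0.75 without WT MZ replicate 1 and 0.92 without WT MZ replicate 2. The 8 B-1 and plasma cell markers summed to 8045 in WT MZ replicate 2, the highest of the 8 libraries, and to 3498 to 5469 in the 6 libraries with low Il5ra. In WT FO replicate 2 they summed to 5126, within the range of those 6. None of the 8 markers was at 0 in both libraries of any group. The T and NK cell markers summed to 1589 in WT FO replicate 2 and 1489 in WT MZ replicate 2, and to 884 to 1237 in the 6 others. The part of such cells in the Il5ra level was not tested.

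The common beta chain that Il5ra needs for signaling had the larger subset difference. Csf2rb was at 239.6 to 392 normalized counts in the 4 FO and 2288 to 3296 in the 4 MZ libraries, a log2 difference of -3.27 (limma adjusted p = 0.000224) in WT and of -3.22 (limma adjusted p = 0.000203) in cKO mice. Its near-identical paralog Csf2rb2, between which and Csf2rb reads can be split, was at 18.1 or less in FO and 51.0 or more in MZ libraries. The ratio of Il5ra to Csf2rb per kilobase lay between 3.70 and 8.75 in FO and between 0.397 and 1.07 in MZ libraries.

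The gp130 group comprised a signaling chain with a wide spread and a pair of ligand-binding chains that were higher in FO B cells. Il6ra (ENSMUSG00000027947.11, chromosome 3 from 89864059 to 89913196, minus strand), the IL-6-binding chain, had WT FO libraries at 1418 and 1312 normalized counts, WT MZ libraries at 472 and 674, cKO FO libraries at 1748 and 1673 and cKO MZ libraries at 442 and 651. The highest MZ library, at 674, was far below the lowest FO library, at 1312. The differences of 1.27 in WT (standard error 0.214, limma adjusted p = 0.00682) and 1.67 in cKO mice (limma adjusted p = 0.00189) were called, and the latter was 1.39 without cKO MZ replicate 1 (limma adjusted p = 0.0158). Its exons overlap 242 bases of the antisense gene Gm42809, at a mean of 1.23 normalized counts, and whether reads were counted by strand is not given in the sources used here.

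Il27ra (ENSMUSG00000005465.9, chromosome 8 from 84030294 to 84042589, minus strand), the IL-27-binding chain, had WT FO libraries at 3391 and 3620.0, WT MZ libraries at 1919 and 2023, cKO FO libraries at 3209 and 3495 and cKO MZ libraries at 1832 and 1905. Its groups were tight, and the 4 FO libraries lay well above the 4 MZ libraries. The difference was 0.83 in WT (standard error 0.086, limma adjusted p = 0.000885) and 0.84 in cKO mice (limma adjusted p = 0.000718), or 0.81 (limma adjusted p = 0.0123) without cKO MZ replicate 1. An overlap of 2 exon bases with Palm3 on the opposite strand leaves few reads that either gene could share.

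Il6st (ENSMUSG00000021756.12, chromosome 13 from 112464070 to 112510086, plus strand), which encodes gp130, had WT FO libraries at 1109 and 661, WT MZ libraries at 1247 and 1406, cKO FO libraries at 1121 and 498 and cKO MZ libraries at 1309 and 814. Its replicates differed by up to 2.25-fold, and FO libraries were below MZ libraries in WT and overlapped them in cKO mice. The FO minus MZ difference was -0.63 (95% interval -1.57 to 0.31, limma adjusted p = 0.35) in WT and -0.46 (limma adjusted p = 0.466) in cKO mice, and the latter was 0.12 without cKO FO replicate 2. Per kilobase, the ratio of Il6ra to Il6st was 1.64 to 4.31 in FO and 0.433 to 1.03 in MZ libraries. Lifr, the gp130 partner for leukemia inhibitory factor, was far less abundant and was at 148 to 263 normalized counts in FO and 9.28 to 27.2 in MZ libraries, a log2 difference of 3.47 in WT (limma adjusted p = 0.000777).

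Among the receptors for IL-10 and the interferons, the chain for type I interferon was the clearest. Ifnar1 (ENSMUSG00000022967.13, chromosome 16 from 91485238 to 91507441, plus strand) had WT FO libraries at 4576 and 4882 normalized counts, WT MZ libraries at 2622 and 2913, cKO FO libraries at 4363 and 4761 and cKO MZ libraries at 2577 and 2581. Each FO library was above each MZ library. The difference was 0.77 in WT (standard error 0.0904, limma adjusted p = 0.00147) and 0.82 in cKO mice (limma adjusted p = 0.001), and without cKO MZ replicate 1 the latter kept its value (limma adjusted p = 0.0146). Its partner Ifnar2 was at a log2 difference of -0.11 in WT (95% interval -0.44 to 0.22, limma adjusted p = 0.669). The ratio of Ifnar1 to Ifnar2 per kilobase was therefore 2.87 to 3.19 in FO and 1.54 to 1.77 in MZ libraries.

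Ifngr1 (ENSMUSG00000020009.13, chromosome 10 from 19591949 to 19610229, plus strand), the IFN-γ-binding chain, had WT FO libraries at 2862 and 2761, WT MZ libraries at 2601 and 2505, cKO FO libraries at 2873 and 2692 and cKO MZ libraries at 2231 and 2431. The 4 FO libraries were above the 4 MZ libraries by a narrow margin. The difference of 0.14 in WT (95% interval -0.058 to 0.34, limma adjusted p = 0.321) and of 0.26 in cKO mice (limma adjusted p = 0.073) did not pass the test. The ratio of Ifngr1 to its partner Ifngr2 per kilobase, 1.14 to 1.48 in FO and 1.31 to 1.70 in MZ libraries, overlapped between subsets.

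Il10ra (ENSMUSG00000032089.16, chromosome 9 from 45253837 to 45269149, minus strand), the IL-10-binding chain, had WT FO libraries at 11532 and 10740.0, WT MZ libraries at 8691 and 9032, cKO FO libraries at 11205 and 7797 and cKO MZ libraries at 5867 and 6366. FO and MZ libraries were apart within each genotype and overlapped over both, since cKO FO replicate 2 was below both WT MZ libraries. The difference was 0.33 in WT (standard error 0.158, limma adjusted p = 0.209) and 0.61 in cKO mice (limma adjusted p = 0.0317), which at 1.53-fold passed by little. It was no longer called with quantile normalization (0.43, limma adjusted p = 0.0739), nor without cKO FO replicate 1 (0.35, adjusted p = 0.106), cKO MZ replicate 1 (0.55, adjusted p = 0.178) or cKO MZ replicate 2 (0.67, adjusted p = 0.0989). Its ligand Il10 was at 10.5 to 17.9 normalized counts in FO and 222 to 309 in MZ libraries, a log2 difference of -4.48 in WT (limma adjusted p = 0.000126), which ran opposite to the receptor values. The partner Il10rb was at a log2 difference of 0.14 in WT (95% interval -0.22 to 0.49, limma adjusted p = 0.602).

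Tgfbr2 (ENSMUSG00000032440.13, chromosome 9 from 116084293 to 116175360, minus strand), the TGF-β-binding serine/threonine kinase that B cells need for switching to IgA, had WT FO libraries at 11942 and 10226 normalized counts, WT MZ libraries at 6426 and 7337, cKO FO libraries at 12342 and 11014 and cKO MZ libraries at 6007 and 6558. The FO libraries were all above the MZ libraries. The difference was 0.69 in WT (standard error 0.117, limma adjusted p = 0.00723) and 0.89 in cKO mice (limma adjusted p = 0.00204), or 0.83 (limma adjusted p = 0.0258) without cKO MZ replicate 1. In WT it was 0.57, under 1.5-fold, both with quantile normalization and without WT FO replicate 1. Tgfbr1, the kinase recruited to it, was at a log2 difference of -0.33 in WT (95% interval -0.75 to 0.087, limma adjusted p = 0.264), and the ratio of Tgfbr2 to Tgfbr1 per kilobase was 5.86 to 7.10 in FO and 2.67 to 3.39 in MZ libraries. Smad3, a target of the receptor complex, was lower in FO by a log2 difference of -1.56 in WT (limma adjusted p = 0.00124).

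**Figure D3:**
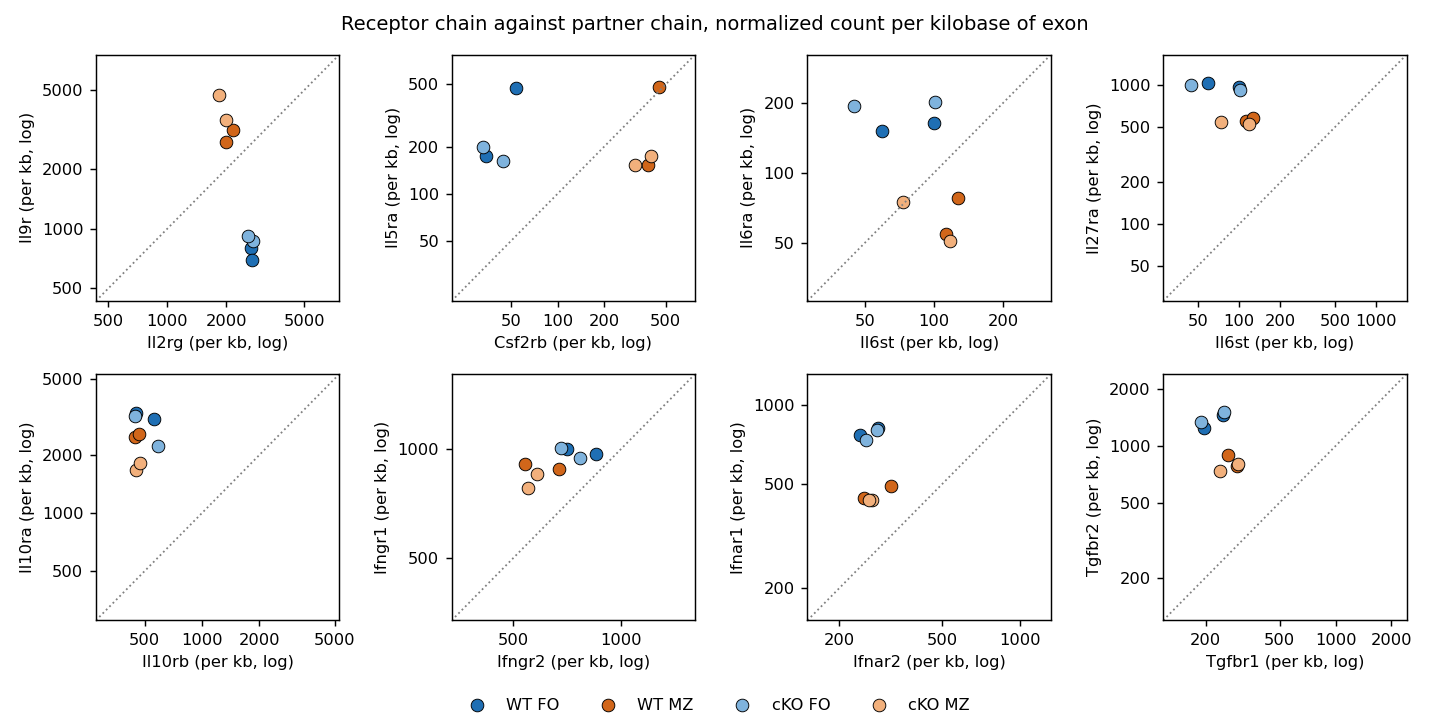
Normalized count per kilobase of exon of a receptor chain (y axis, log scale) against that of its partner chain (x axis, log scale) in the 8 libraries, 1 panel per pair. Circles are single libraries coloured by group and the dotted line marks equal levels at the exon lengths used. FO and MZ libraries lie on opposite sides of the line for Il9r with Il2rg and are set apart along the x axis for Il5ra with Csf2rb, whereas they lie side by side for Ifngr1 with Ifngr2.

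Deletion of Gtf2i was then compared within each subset. No chain was called in FO B cells, where 0.0677% of all genes were called in either direction, nor in MZ B cells, where 0.0339% were, nor across both subsets, where 0.108% were. At an unadjusted p under 0.05, 0 of the 10 chains passed in FO B cells and 2 (Il9r and Il10ra) in MZ B cells and across both subsets, where 2.59%, 4.04% and 6.63% of all genes passed. On the recovered reads edgeR also called 0 of the 10 chains in FO, in MZ and across both subsets, beside 0.0610%, 0.0271% and 0.108% of all genes, and DESeq2 called 0 beside 0.169%, 0.325% and 0.467%.

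Il9r was higher in both cKO MZ libraries (23286 and 17360.4) than in both WT MZ libraries (15480.3 and 13458), and higher in both cKO FO than in both WT FO libraries. The difference was 0.48 in MZ (95% interval 0.13 to 0.83, limma adjusted p = 0.998, DESeq2 adjusted p = 0.283) and 0.26 in FO B cells (95% interval -0.091 to 0.61, limma adjusted p = 1). In MZ it was 0.27 without cKO MZ replicate 1 and lay between 0.27 and 0.69 over the alternatives. Across both subsets it was 0.37 (limma adjusted p = 0.608, DESeq2 adjusted p = 0.116), or 0.26 without cKO MZ replicate 1.

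For Il10ra the values went the other way. Both cKO MZ libraries (5867 and 6366) were below both WT MZ libraries (8691 and 9032), while the FO libraries overlapped. The difference was -0.54 in MZ (95% interval -0.90 to -0.17, limma adjusted p = 0.998, DESeq2 adjusted p = 0.26), -0.48 without cKO MZ replicate 1, and -0.25 in FO B cells (95% interval -0.62 to 0.11, limma adjusted p = 1). Across both subsets it was -0.39 (limma adjusted p = 0.608, DESeq2 adjusted p = 0.163), or -0.36 without cKO MZ replicate 1.

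The 8 other chains had intervals that included 0 in both subsets. In MZ B cells 5 chains (Il2rg, Il10ra, Il27ra, Ifngr1 and Ifnar1) had both cKO libraries below both WT libraries, as 18.7% of all genes did, and Il9r had both above, as 15.8% did. In FO B cells Il6ra and Il9r had both cKO libraries above both WT libraries, as 10.9% of all genes did, and none had both below, where 13.1% of all genes did. Il6ra differed by 0.33 in FO (95% interval -0.17 to 0.82) and by -0.073 in MZ B cells (95% interval -0.57 to 0.42), the latter at 0.21 without cKO MZ replicate 1. The MZ interval of the X-linked Il2rg was -0.31 to 0.077, that of Il27ra -0.28 to 0.12, that of Ifnar1 -0.31 to 0.11, that of Ifngr1 -0.33 to 0.064 and that of Tgfbr2 -0.40 to 0.14, so that for these 5 chains a change of 1.5-fold lay outside the interval. Il5ra was at -0.67 in FO (limma adjusted p = 1) and -0.74 in MZ libraries (limma adjusted p = 0.998), values that became 0.040 without WT FO replicate 2 and 0.095 without WT MZ replicate 2. Il6st was at -0.20 in FO and -0.36 in MZ B cells, with intervals reaching from -1.14 to 0.75 and from -1.30 to 0.58.

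**Figure D4:**
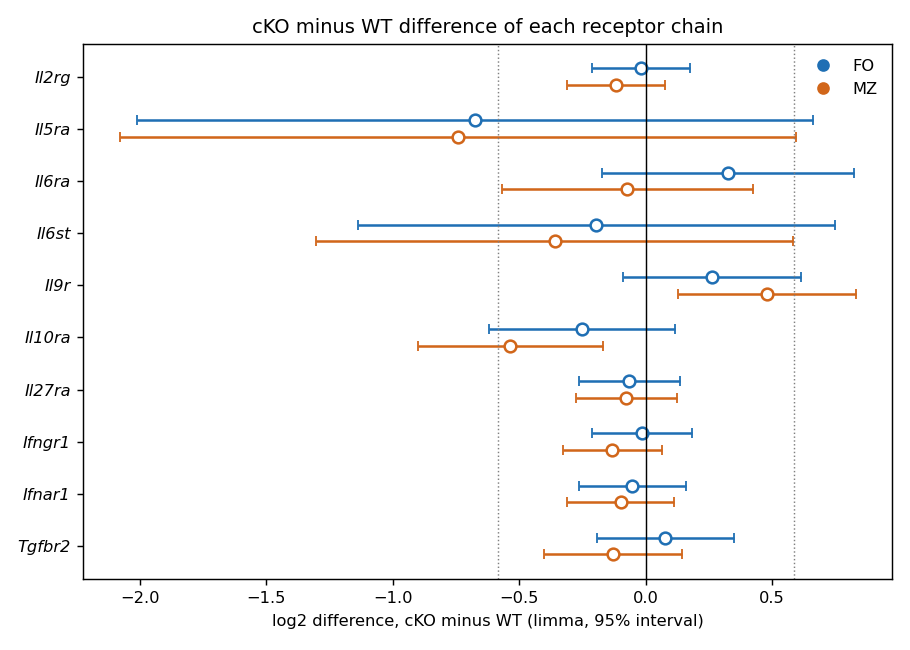
cKO minus WT difference of each receptor chain in log2 of the normalized count plus 1 (x axis), with one row per gene, FO in blue and MZ in orange. Points are limma estimates, bars are 95% confidence intervals, open points did not pass the cutoffs, and the dotted lines mark a fold of 1.5. All points are open, the MZ intervals of Il9r (0.13 to 0.83) and Il10ra (-0.90 to -0.17) alone leave out 0, and the intervals of Il5ra and Il6st are the widest.

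Whether the genotype difference itself depended on the subset was tested as an interaction, FO minus MZ. No chain was called, nor was any of the 14761 genes by limma, edgeR or DESeq2, and at an unadjusted p under 0.05 limma gave 0 chains and 94 genes. The estimates furthest from 0 were 0.40 for Il6ra (95% interval -0.30 to 1.10), 0.28 for Il10ra (95% interval -0.23 to 0.80) and -0.22 for Il9r (95% interval -0.71 to 0.28). The subset difference of Il10ra, called in cKO and not in WT, was thus not shown to differ between genotypes.

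The other genes of these pathways were counted on 5 lists. Beside these counts, 4.62% of all genes tested were called higher and 7.41% lower in FO B cells of WT mice. In cKO mice these shares were 5.54% and 8.18%. Of 17 partner chains 14 were tested, and in WT mice 3 were called higher and 3 lower in FO B cells, with the same numbers in cKO. Of 40 other cytokine receptor chains 21 were tested, with 2 higher and 2 lower in WT and 2 higher and 1 lower in cKO mice. The largest were Ifnlr1, the IFN-λ-binding chain, at 1.59 (limma adjusted p = 0.00811), Il12rb1, shared by IL-12 and IL-23, at -1.48 (limma adjusted p = 0.0423), and Csf2ra, the GM-CSF-binding partner of Csf2rb, at -0.65 (limma adjusted p = 0.00741). Il12rb1 was not called without any 1 of 6 libraries, at -0.93 and an adjusted p of 0.171 without WT FO replicate 1, at -1.10 and 0.183 without WT MZ replicate 2, and at an adjusted p of 0.0688 to 0.0778 without any 1 of the 4 cKO libraries.

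Of 22 ligands 7 passed the filter on low values and were tested. In WT mice 2 were called higher in FO and 2 lower, and in cKO mice 3 and 1. Besides Il10, they included Clcf1, a gp130 cytokine, at 1.08 (limma adjusted p = 0.00165) and Tgfb3 at 1.55 (limma adjusted p = 0.0275). Tgfb3 was not called without WT FO replicate 1 (1.48), WT FO replicate 2 (1.62) or WT MZ replicate 2 (1.13).

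Downstream of the chains, all 15 kinases and STAT and SMAD factors were tested, with 2 higher and 1 lower in FO B cells of WT mice and 4 higher and 1 lower in cKO mice. Jak1, the kinase used by the gamma chain, gp130, IL-10 and interferon receptors, was at 19440.3 to 22037 normalized counts in FO and 12002 to 12707 in MZ libraries, a difference of 0.71 in WT (limma adjusted p = 0.00265). Stat4, which acts downstream of IL-12 and type I interferon, was higher in FO by 1.10 (limma adjusted p = 0.0231) and was not called without WT FO replicate 1 (0.75) or WT MZ replicate 2 (0.88). Of 26 inhibitors 25 were tested, with 1 higher and 1 lower in WT and 2 higher and 1 lower in cKO mice. Cish, an inhibitor that STAT5 induces, was at 16.8 or less in FO and 35.9 or more in MZ libraries, a log2 difference of -3.21 in WT (limma adjusted p = 0.0035). Skil, a repressor of SMAD signaling, was higher in FO by 0.74 (limma adjusted p = 0.0105), or 0.58 and not called without WT FO replicate 1. Between cKO and WT none of the 82 genes tested on the 5 lists was called by limma or edgeR in FO, in MZ or across both subsets, and DESeq2 called Il21r alone, in MZ B cells.

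Il21r had WT FO libraries at 7824 and 8384, cKO FO libraries at 5750 and 6374, WT MZ libraries at 3756 and 4257 and cKO MZ libraries at 2497 and 2619. In each subset the cKO values lay under the WT values. The study, which used DESeq2 at the same cutoffs, also names Il21r among the genes lower in cKO MZ B cells. The cKO minus WT difference in MZ was -0.64 (95% interval -0.87 to -0.42), with a limma adjusted p of 0.231, an edgeR adjusted p of 0.275 and a DESeq2 adjusted p of 0.000178, and it was -0.61 without cKO MZ replicate 1 (limma adjusted p = 0.747). In FO B cells it was -0.42 (limma adjusted p = 0.955, DESeq2 adjusted p = 0.197), and across both subsets -0.53 (limma adjusted p = 0.0598, DESeq2 adjusted p = 6.82e-07), under 1.5-fold. Il4ra was also lower in each cKO library than in each WT library of its subset. Its difference was -0.48 in MZ (limma adjusted p = 0.515, DESeq2 adjusted p = 0.0297) and, among FO libraries, -0.43 (limma adjusted p = 0.95), each under 1.5-fold.

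Genes whose pattern over the 8 libraries was most like that of the chains at either end were found by Pearson's r of log2 values, as a description, since all points share the split into FO and MZ. For Il6ra they were Gna15 (r = 0.996), Map3k9 (r = 0.993) and Nup210l (r = 0.993), and 980 of 14760 genes had an r above 0.9. For Il9r they were Rsu1 (r = 0.995), Slc25a5 (r = 0.993) and 5730409E04Rik (r = 0.992), and 1204 genes had an r above 0.9.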

How the data were processed

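RNA-seq of FACS-sorted splenic B cells was analysed, with 2 libraries in each of 4 groups of subset and genotype. According to the methods, ribosomal RNA was depleted, single-end reads were aligned to mm10 with HISAT2, counted on genes with featureCounts and htseq-count and compared with DESeq2, whose versions are not given in the sources used here. The authors deposited the signal as normalized counts of 27928 genes, each being reads over the size factor of a library. The 256343 blank lines were skipped, and whole reads were recovered for 100% of values within a tolerance of 0.01. The reads on genes, from 21546552 to 25083552 per library, make counting error small for the chains, whose precision is limited by there being 2 libraries a group.

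With a pseudocount of 1, log2 values were fitted by limma 3.58.1 (lmFit, eBayes with trend, R 4.3.3) in 1 fit of the 8 libraries for genes at a mean of 10 or more. Fold changes of low genes are understated by the pseudocount. The cutoffs on p and fold follow the study. Alternatives were a pseudocount of 0.5, no filter, quantile normalization, TMM factors, a 2-fold cutoff, only the 4 libraries compared, a replicate block, DESeq2 1.42.0 and edgeR 4.0.16 on recovered reads, and each library left out. The fits were tested on simulated data. Exon lengths and positions are from GENCODE release M21 for GRCm38, with 27347 identifiers matched, and flanks from RefSeq for GRCm38.p6.

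The chains, lists and motifs were chosen with earlier results of these data known. Named were all 10 chains, their first partners, the 3 called genes of each list with the largest WT subset difference, listed genes called between genotypes, and the 3 genes most like the chain at either end. Il4ra, Il21r, Il15ra, Il2ra, Il2rb and Il7r were singled out as partners of Il2rg after their values were seen. The 8 ATAC-seq samples were not analysed here. The result for 1 further gene is not reported here.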

Additional observations from a re-analysis of the deposited data

How the results depend on the processing

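The counts of chains called kept to within 1.5 times under all alternatives but 1: at a 2-fold cutoff, 1 chain (Il6ra) was called higher in FO in each genotype. With quantile normalization the median FO minus MZ difference of all genes shifted by 0.10 in WT and 0.12 in cKO, and differences near 0 changed sign, to 0.0084 for Ifngr1 between cKO and WT in FO, 0.017 for Tgfbr2 across both subsets and -0.011 for Il27ra in the interaction. Leaving out 1 library changed the sign of differences that were not called, by ranges as follows. FO minus MZ ranged from -0.75 to 0.92 for Il5ra in WT and from -1.05 to 0.12 for Il6st in cKO. In FO B cells cKO minus WT ranged from -0.12 to 0.010 for Ifnar1, -0.062 to 0.031 for Ifngr1, -0.51 to 0.0098 for Il10ra, -0.054 to 0.018 for Il2rg, -1.39 to 0.040 for Il5ra, -0.78 to 0.39 for Il6st and -0.035 to 0.19 for Tgfbr2. In MZ B cells it ranged from -1.58 to 0.095 for Il5ra and from -0.35 to 0.21 for Il6ra. Across both subsets it ranged from -0.013 to 0.27 for Il6ra, -0.57 to 0.014 for Il6st and -0.082 to 0.030 for Tgfbr2. The interaction ranged from -0.029 to 0.12 for Ifnar1, -0.050 to 0.073 for Il27ra, -0.77 to 0.90 for Il5ra and -0.42 to 0.75 for Il6st. The cause was not tested. In all, 1098 log2 differences under the alternatives kept their direction and call, 27 were no longer called and 39 changed sign. In the fit of only the 4 WT libraries, Csf2rb2, Ifnlr1, Il12rb1, Tgfb3 and Stat4 were not called.

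Libraries with the same number were not treated as pairs, since nothing in the labels ties the numbers. Their deviations correlated at 0.591 between WT FO and WT MZ, however, and at -0.0015 between cKO FO and cKO MZ. Between the other pairs of groups the correlation ran from -0.296 to 0.294. Whether the WT replicates share a source was not tested, and the replicate block fits the same replicate effect in all groups. With the replicate block limma called 4 chains higher and 1 lower in FO of WT mice and 5 and 1 of cKO mice, as without it, and 0 between genotypes, beside 789 and 1184 of all genes in WT and 934 and 1328 in cKO mice. Il5ra and Il6st are limited by their replicate spread and not by their read numbers.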
